A study of Mus musculus with 10 samples.

Results

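A set of 9 genes that write, erase or read methylation of DNA was followed by symbol through all 10 libraries of the series, as 9 of the 53379 genes counted: the methyltransferases Dnmt1, Dnmt3a and Dnmt3b with the Dnmt1 partner Uhrf1, the dioxygenases Tet1, Tet2 and Tet3, and the binding proteins Mbd1 and Mbd2. The material was RNA from EYFP cells (called nuclei in the results section of the study) sorted from microdissected hippocampal regions of 5-week-old male mice. In these mice a virus with the c-Fos promoter and tTA (AAV9-c-Fos-tTA) and a reporter virus (AAV9-TRE-ChR2-EYFP) mark cells that are active while doxycycline is withdrawn. A tagged cell is thus one whose c-Fos promoter fired and which took up both viruses. The aversive group (labeled neg, libraries 1 and 3) had 4 foot shocks of 1.5 mA for 2 s. The appetitive group (pos, libraries 1 and 2) had 1 h with a female in a clean home cage (a longer time by the methods of the study). The neutral group (neu, libraries 1 to 3) had the conditioning cage without either stimulus. The mock group (libraries 1 to 3) stayed in the home cage and is called an untagged control in the methods of the study. Each condition pooled 8 mice by the labels (fewer for mock by the methods of the study), and the study describes its sequencing as replicated without saying whether the libraries of a group are separate pools or splits of one pool, so p-values measure only the spread between these libraries, which may be technical. The neutral libraries were made with another kit and sequenced as paired 100 bp reads, against single 40 bp reads for the other groups, so neutral experience and library kit cannot be told apart. In pooled RNA, fewer cells of a type and less RNA per cell cannot be told apart either.

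Methyl groups are placed on cytosines that precede a guanine (CpG) by Dnmt3a and Dnmt3b, which can act on unmethylated DNA, and are copied to the new strand after replication by Dnmt1, which Uhrf1 brings to half-methylated sites. Tet proteins oxidise the methyl group as a step toward its removal, and Mbd1 and Mbd2 bind methylated CpGs and bring in repressors. Neurons no longer divide yet keep a high level of Dnmt3a and of the Tet genes, and Dnmt1 and Dnmt3a in forebrain neurons are known for a part in synaptic plasticity and memory.

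Many promoters of these genes hold dense stretches of the CpG that their products act on, and 4 windows are shown, those of Dnmt1 and Tet1, which had libraries at or near the limit of detection, and of Dnmt3a, which was well measured in every library. RefSeq windows of 300 bases (GRCm38.p6, from 250 bases before to 50 bases after a transcript start) were found for 7 of the 9 genes, in 12 windows. They are printed 5′ to 3′ on the strand of the gene, with each CG in capitals (CG reads the same on both strands). Dnmt1 has a CpG-rich start at chr9:20952574-20952873 (minus strand) with 33 CpGs, and a start at the outer end of the gene, chr9:20959839-20960138 (minus strand), with 2. One of 3 Dnmt3a windows lies at chr12:3806910-3807209 (plus strand) and holds 47 CpGs, and the Tet1 window at chr10:62887275-62887574 (minus strand) holds 17.
Dnmt1, CpG-rich start: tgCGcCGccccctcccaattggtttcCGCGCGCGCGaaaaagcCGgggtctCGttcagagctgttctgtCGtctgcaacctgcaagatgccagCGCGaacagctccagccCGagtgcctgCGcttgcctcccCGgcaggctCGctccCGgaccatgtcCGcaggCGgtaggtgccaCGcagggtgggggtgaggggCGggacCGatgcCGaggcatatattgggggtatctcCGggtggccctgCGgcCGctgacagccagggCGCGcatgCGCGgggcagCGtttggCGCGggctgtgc
Dnmt1, outer start: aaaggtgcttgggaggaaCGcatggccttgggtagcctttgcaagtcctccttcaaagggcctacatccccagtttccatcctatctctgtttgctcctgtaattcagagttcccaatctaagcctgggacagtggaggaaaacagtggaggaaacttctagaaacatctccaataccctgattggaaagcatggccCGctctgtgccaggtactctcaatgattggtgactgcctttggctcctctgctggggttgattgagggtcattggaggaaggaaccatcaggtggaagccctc
Dnmt3a: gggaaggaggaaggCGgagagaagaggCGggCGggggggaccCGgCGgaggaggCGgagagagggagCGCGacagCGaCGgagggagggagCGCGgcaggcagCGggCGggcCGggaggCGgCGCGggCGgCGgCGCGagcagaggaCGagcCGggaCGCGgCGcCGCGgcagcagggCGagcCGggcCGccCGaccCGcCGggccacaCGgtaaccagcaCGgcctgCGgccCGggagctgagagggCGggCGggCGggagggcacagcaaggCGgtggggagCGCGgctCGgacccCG
Tet1: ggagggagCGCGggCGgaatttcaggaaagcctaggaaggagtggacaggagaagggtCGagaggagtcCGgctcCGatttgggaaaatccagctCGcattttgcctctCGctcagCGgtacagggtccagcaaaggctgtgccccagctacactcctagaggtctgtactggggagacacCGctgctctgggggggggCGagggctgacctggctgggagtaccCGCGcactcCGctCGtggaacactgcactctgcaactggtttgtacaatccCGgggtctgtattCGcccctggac
As many CpGs or more were found in 8.56% of all 32851 windows for the first Dnmt1 start, in 85.9% for the outer start, in 1.44% for Dnmt3a and in 31.4% for Tet1, where the median window held 7. The fullest of these 12 windows was that of Tet2, with 57 CpGs, a number reached by 0.152% of windows. Reads were counted per gene, so the counts do not tell which Dnmt1 start was used.

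Total counts were 20505550 to 49880042 in mock, 27159427 to 39172609 in aversive, 16968588 to 26647573 in appetitive libraries and 60077131 to 67650693 in neutral ones. The appetitive libraries stood apart by how few genes had any count (14144 and 14658, against 16849 to 30899 elsewhere), and levels of 2 replicates agreed less in the aversive and appetitive groups (Spearman's rho over genes 0.637 and 0.606) than in mock (0.91 to 0.922) or neutral (0.766 to 0.864). Levels are given as normalized CPM (counts relative to the library size after TMM scaling), and 3 counts, taken as the smallest level a library can show, equal 0.0347 to 0.235 CPM. All 9 genes passed the filter on low counts, which kept 19754 genes. Markers of the sorted material were mixed: summed oligodendrocyte markers ran from 6111 to 676740 CPM and summed neuron markers from 65.5 to 734 CPM. Single neuron markers did not move together. In appetitive 2, Rbfox3, a marker of mature neurons, had 2 counts (0.105 CPM) while Snap25, another neuron marker, was at 154 CPM. Rbfox3 was also low in neutral 2, at 0.173 CPM. Astrocyte markers summed to 52.4 to 164 CPM in neutral libraries and to at least 1948 CPM in each of the others. The interneuron genes Gad1 and Gad2 had no count in either appetitive library or in neutral 1. They summed to 1.46 and 0.206 CPM in neutral 2 and 3.

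Dnmt1, the maintenance methyltransferase (ENSMUSG00000004099, GRCm38 chr9:20907209-20959888, minus strand), showed the clearest pattern of the 9 genes. Its level was 16.2, 8.80 and 34.6 CPM in mock 1, 2 and 3, and 15.9, 47.5 and 17.8 CPM in neutral 1, 2 and 3. It was 0.400 and 0.301 CPM in aversive 1 and 3, from 8 and 15 counts. In appetitive 1 and 2 it was 0.235 and 1.10 CPM, from 3 and 21 counts. Thus all 4 libraries of the aversive and appetitive groups lay below all 6 mock and neutral libraries, which was true of no other member and of 1283 (6.49%) of the genes tested. Appetitive 1 sat at the 3-count floor itself.

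**Figure D1:**
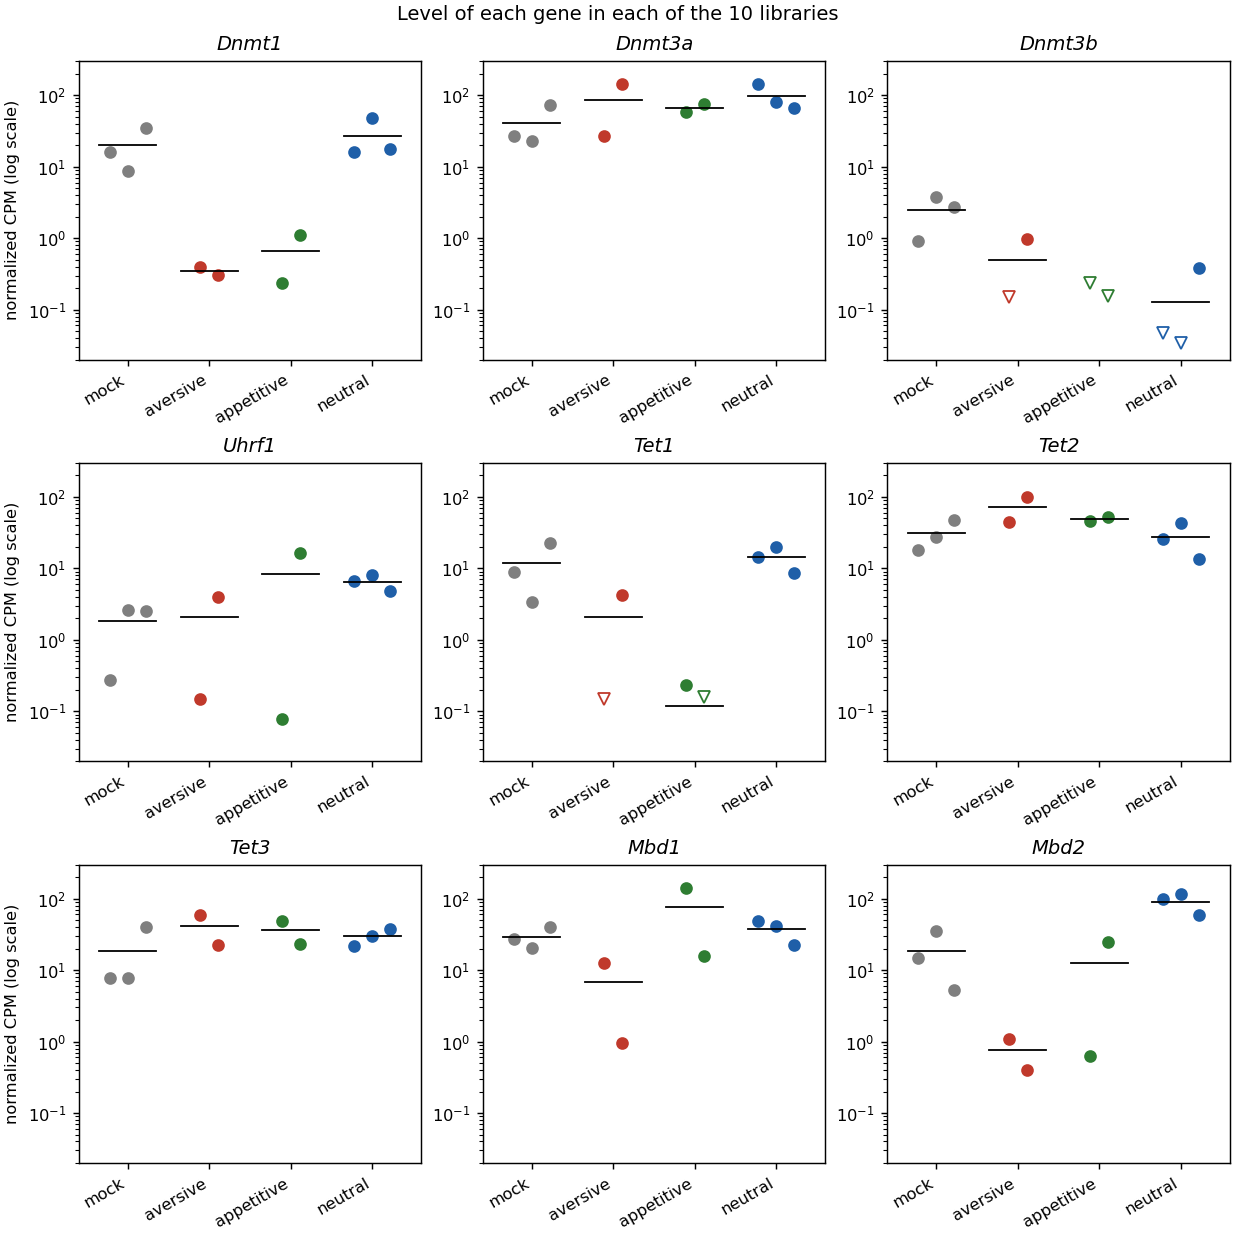
Normalized CPM of each gene (log axis, the same in every panel) in the 3 mock, 2 aversive, 2 appetitive and 3 neutral libraries, where circles are libraries in the order of their numbers, lines are group means and open triangles are libraries with 0 counts, drawn at the level of 3 counts. Dnmt1 lies at 0.235 to 1.10 CPM in the 4 aversive and appetitive libraries and at 8.80 CPM or more in the other 6, while Dnmt3a, Tet2 and Tet3 are at 7.72 CPM or more in every library.

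The edgeR quasi-likelihood test, adjusted over all genes, did not call Dnmt1 in any comparison. Its log2 fold change was -6.26 (SE 1.63, unadjusted p 0.00269, adjusted p 0.137) for aversive against neutral and -5.82 (SE 1.59, unadjusted p 0.00377, adjusted p 0.473) for aversive against mock. It was -5.32 (SE 1.55, unadjusted p 0.0056, adjusted p 0.0619) for appetitive against neutral and -4.88 (SE 1.52, unadjusted p 0.00817, adjusted p 0.106) for appetitive against mock. These correspond to levels 76.9-fold, 56.5-fold, 40.1-fold and 29.4-fold lower. In the appetitive comparisons the median over all genes was itself -0.91 against neutral and -1.45 against mock on the log2 scale, and relative to it Dnmt1 stood at -4.41 and -3.43. DESeq2's Wald test called Dnmt1 in all 4 of these comparisons, with adjusted p 2.01e-07 for aversive against neutral, 4.46e-06 for aversive against mock, 1.85e-05 for appetitive against neutral and 0.000142 for appetitive against mock. The aversive and appetitive values came from groups of 2 libraries, and over all other settings tried the highest adjusted p in each comparison was 0.644, 0.783, 0.664 and 0.658 in the same order.

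**Figure D2:**
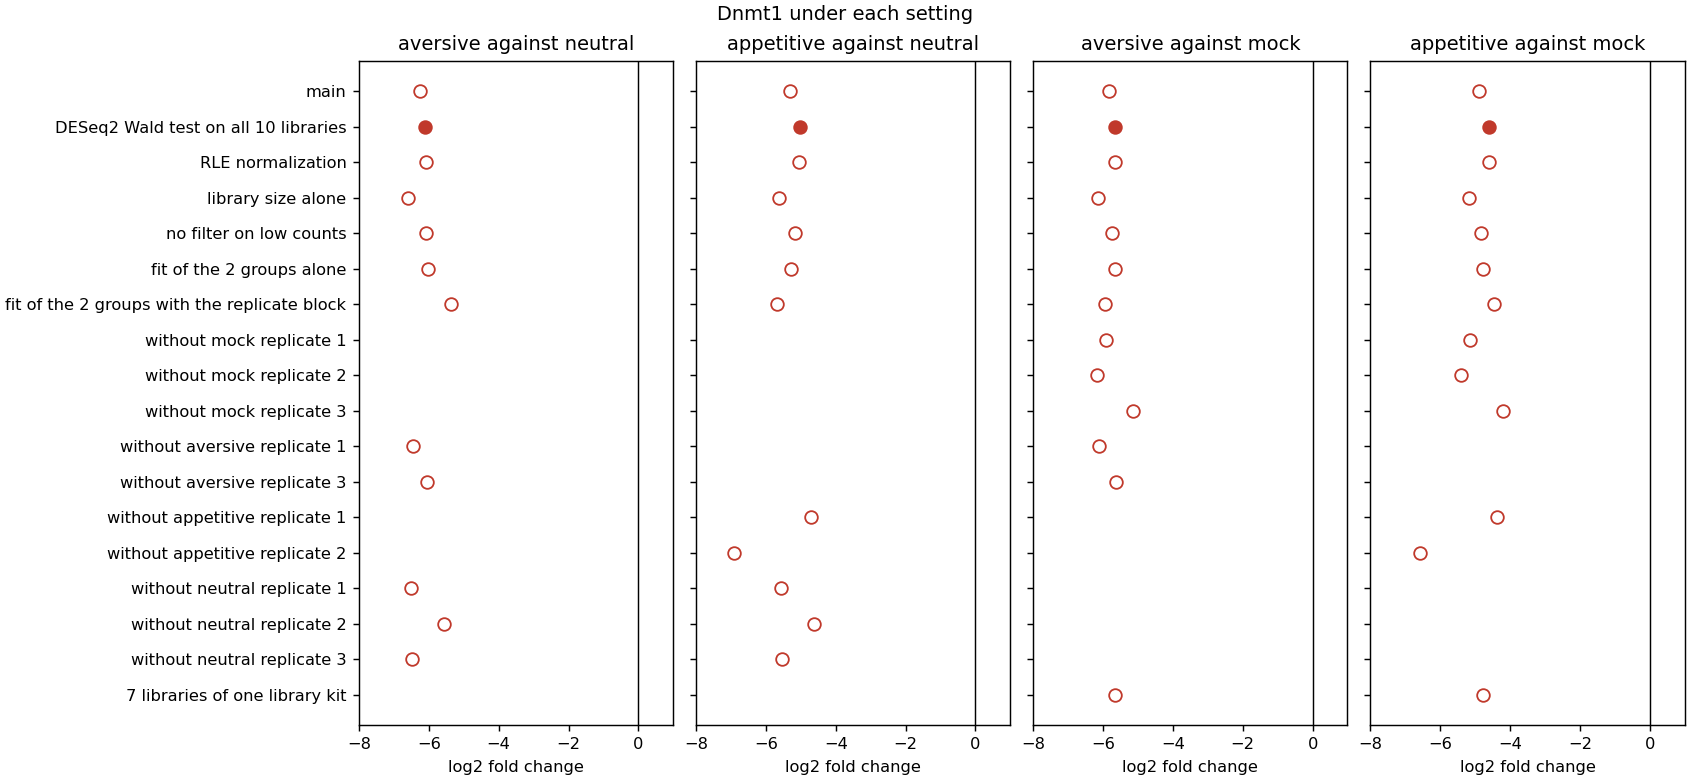
Log2 fold change of Dnmt1 (horizontal axis) in 4 comparisons under each setting tried (rows), filled where the adjusted p was under 0.05 and open where it was not; rows that do not apply to a comparison are blank. The values run from -6.92 to -4.20, and DESeq2 is the one setting with filled points.

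The levels of 2 marker genes of oligodendrocyte precursor cells separated the libraries in the same way as Dnmt1. The summed level of Pdgfra, a growth factor receptor, and Cspg4, the proteoglycan NG2, was 18.4 to 55.9 CPM in mock and 19.5 to 118 CPM in neutral libraries, against 0.250 to 3.57 CPM in aversive and 0.391 to 0.629 CPM in appetitive libraries. Each of these markers was by itself lower in all 4 aversive and appetitive libraries than in any of the other 6, with Pdgfra at 0 to 3 counts in those 4 and at 179 or more elsewhere. The part of these markers in the Dnmt1 result was not tested. Summed levels of 11 cell cycle genes, with which Dnmt1 and Uhrf1 are co-expressed in dividing cells, overlapped between all groups, at 36.9 to 111 CPM in mock, 36.6 to 109 in aversive, 12.7 to 114 in appetitive libraries and 42.0 to 89.3 in neutral ones. Taken one by one, 2 of these 11 were lower in all 4 aversive and appetitive libraries than in any of the other 6. This was true of 6.49% of the genes tested. Ccna2, a cyclin, was at 0 to 0.300 CPM in those 4 and at 0.937 CPM or more in the other 6. Mcm5, of the replicative helicase, had 0 to 2 counts against 5 or more. Its 5 counts in neutral 2 (0.0577 CPM) lay below the 3-count level of each of those 4 libraries (0.0601 to 0.235 CPM). Mcm5 was thus too close to the floor to show a separation. The part of these genes in the Dnmt1 result was not tested.

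**Figure D3:**
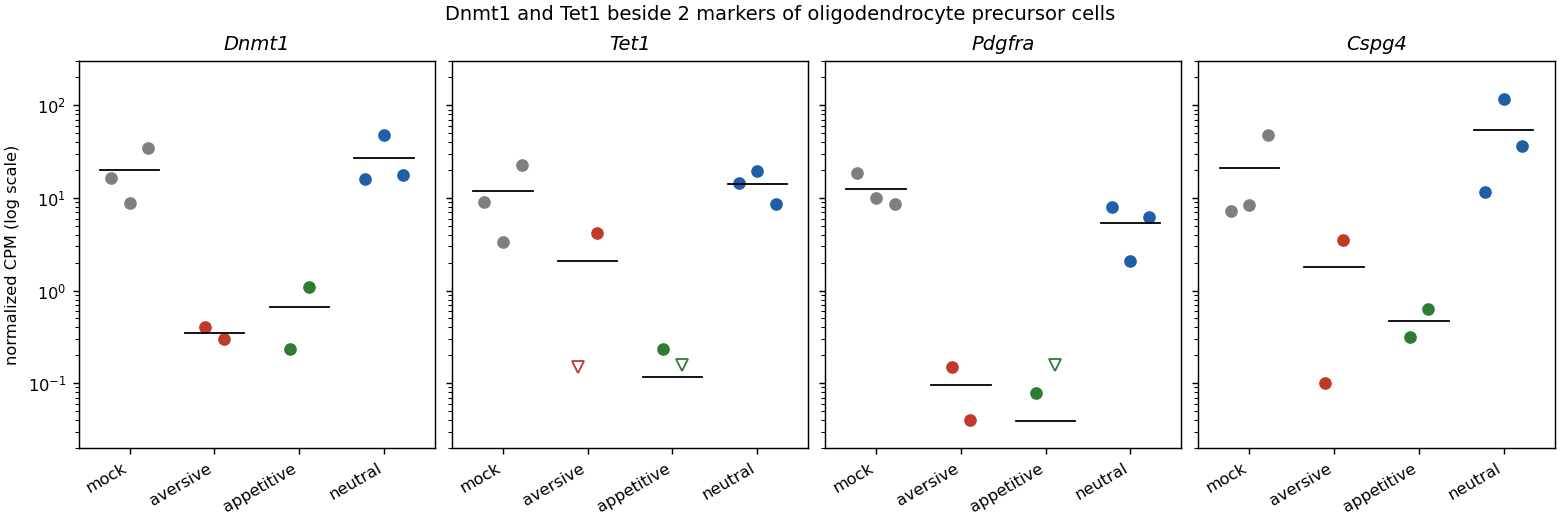
Normalized CPM (log axis) of Dnmt1, Tet1 and the oligodendrocyte precursor markers Pdgfra and Cspg4 in each library, with circles for libraries, lines for group means and open triangles for 0 counts drawn at the level of 3 counts. Pdgfra and Cspg4, like Dnmt1, are lower in each of the 4 aversive and appetitive libraries than in each of the 6 mock and neutral libraries, whereas Tet1 in aversive 3 (4.21 CPM) lies above mock 2 (3.33 CPM).

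Dnmt3a, the main de novo enzyme of mature neurons (ENSMUSG00000020661, chr12:3806007-3914443, plus strand), was abundant in every library. It was at 27.2, 22.9 and 71.8 CPM in mock 1 to 3 and at 146, 79.9 and 65.3 CPM in neutral 1 to 3. Aversive 1 and 3 had 26.9 and 145 CPM, and appetitive 1 and 2 had 57.3 and 75.7 CPM. All groups overlapped, and the 2 aversive libraries alone differed 5.39-fold, more than the means of any groups did. Its fitted log2 fold changes lay between -0.54 and 1.26 with SE of 0.82 to 0.99, and the smallest unadjusted edgeR p was 0.154. An antisense gene, Dnmt3aos, shares 133 bases of exon with it, and reads from either were not told apart in counts without strand.

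Dnmt3b, the de novo enzyme prominent in early development (ENSMUSG00000027478, chr2:153649450-153687730, plus strand), was near the limit of detection outside the mock group. Mock 1 to 3 had 23, 73 and 200 counts (0.916, 3.80 and 2.76 CPM). Only 1 aversive library (49 counts, 0.982 CPM) and 1 neutral library (30 counts, 0.385 CPM) had any count, and both appetitive libraries had 0. Against the 3-count floor of the appetitive libraries the mock mean was at least 10.6-fold higher and the aversive mean at least 2.09-fold higher, while the neutral mean was below that floor. The smallest unadjusted edgeR p was 0.0538, for appetitive against mock.

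Uhrf1, the partner that recognises half-methylated CpGs (ENSMUSG00000001228, chr17:56303321-56323486, plus strand), did not follow Dnmt1. Its level was 0.279, 2.66 and 2.53 CPM in mock 1 to 3 and 6.56, 8.0 and 4.78 CPM in neutral 1 to 3. Aversive 1 and 3 had 0.150 and 3.97 CPM, and appetitive 1 and 2 had 0.0782 and 16.5 CPM. The highest and the lowest of all 10 values were thus the 2 appetitive libraries, which held 315 counts and 1 count and differed by 211-fold. The smallest unadjusted edgeR p in any comparison was 0.287.

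Within each library the balance between the methyltransferases does not depend on scaling, since both genes are read from the same library. Per kb of exon, the ratio of Dnmt3a to Dnmt1 was 0.741, 1.15 and 0.920 in mock 1 to 3 and 4.07, 0.746 and 1.63 in neutral 1 to 3. It was 29.8 and 213 in aversive 1 and 3 and 108 and 30.5 in appetitive 1 and 2. The lowest of these 4 exceeded the highest of the other 6. Expressed as a share of the 3 Dnmt genes per kb, Dnmt1 made up 36.0 to 54.9% in mock and 19.7 to 57.3% in neutral libraries, against 0.456 to 3.25% in aversive and 0.915 to 3.17% in appetitive libraries, where Dnmt3a took at least 96.7%. This restates the low Dnmt1 counts without the scaling and is no separate measurement.

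**Figure D4:**
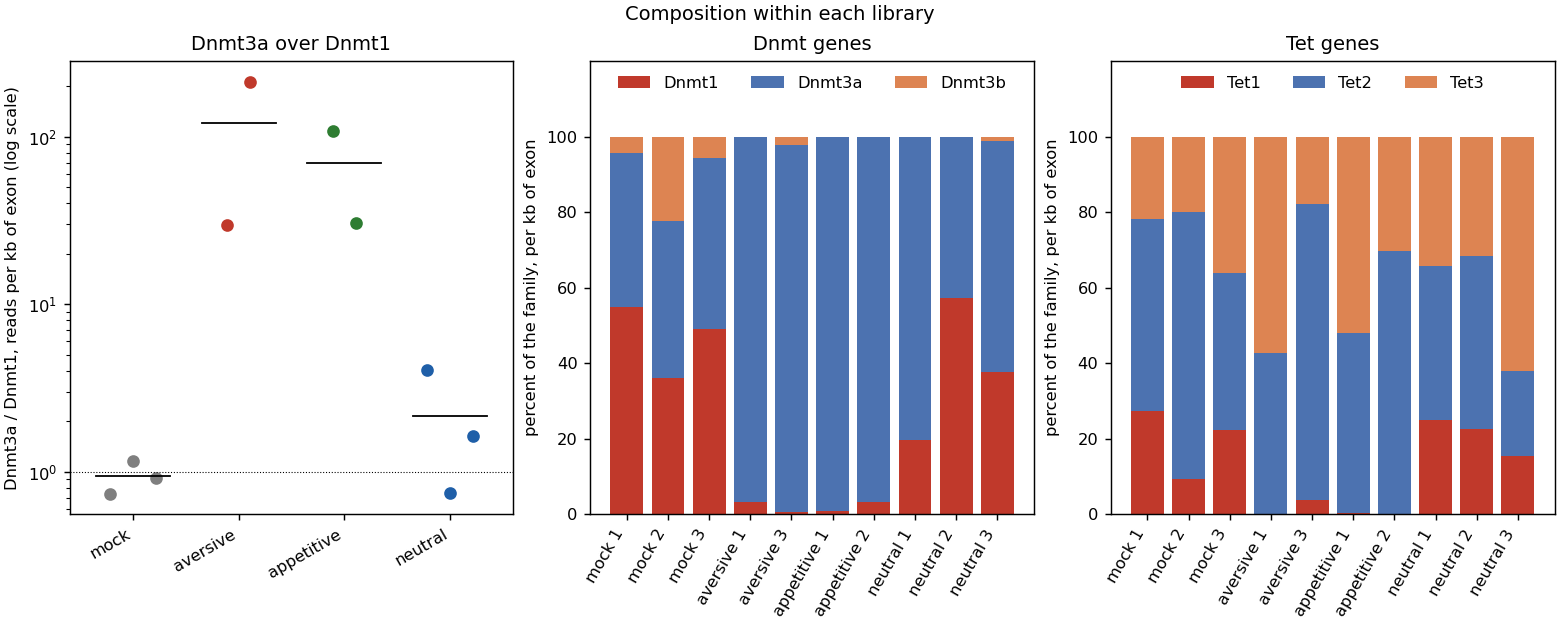
Left, the ratio of Dnmt3a to Dnmt1 reads per kb of exon in each library (log axis, circles for libraries, lines for group means, dotted line at equality); middle and right, the share of each Dnmt and Tet gene in the sum of its family per kb of exon (percent, bars for libraries). The ratio is 29.8 or more in the 4 aversive and appetitive libraries and 4.07 or less in the other 6, and Tet1 takes at most 3.65% of the Tet sum in those 4 libraries against 9.26% or more elsewhere.

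Among the erasers, Tet1, which carries a CpG-binding CXXC domain (ENSMUSG00000047146, chr10:62804570-62908996, minus strand), was the one with libraries at or near 0 counts. Mock 1 to 3 had 9.04, 3.33 and 22.9 CPM and neutral 1 to 3 had 14.5, 19.6 and 8.61 CPM. Aversive 1 had no count and aversive 3 had 210 counts (4.21 CPM), and appetitive 1 and 2 had 3 counts (0.235 CPM) and none. The appetitive libraries lay below all mock and neutral libraries, and the aversive libraries lay below all neutral ones but not below mock 2.

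With 3 counts in the appetitive group in all, its fold change is best read from the pooled counts. The neutral level was 153 times the appetitive one (95% counting interval 52.5 to 744) and the mock level 177 times (60.6 to 861), intervals that cover counting error only. The edgeR test gave a log2 fold change of -6.96 (SE 2.72, unadjusted p 0.0265, adjusted p 0.125) for appetitive against neutral and -6.69 (SE 2.69, unadjusted p 0.03, adjusted p 0.176) for appetitive against mock, neither called. Relative to the median gene these were -6.05 and -5.24. DESeq2 called both, with adjusted p 0.00432 and 0.00789, and the highest adjusted p of the other settings was 0.664 and 0.519. Tet1 made up 9.26 to 27.4% of the 3 Tet genes per kb in mock and 15.5 to 25.0% in neutral libraries, 0 to 3.65% in aversive and 0 to 0.267% in appetitive libraries. The oligodendrocyte precursor markers given above were low in these same libraries, and their part in the Tet1 result was not tested.

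Tet2, which lacks the CXXC domain (ENSMUSG00000040943, chr3:133463679-133545139, minus strand), was well measured in all libraries. It was at 18.3, 27.8 and 47.0 CPM in mock 1 to 3 and at 25.9, 43.3 and 13.6 CPM in neutral 1 to 3. Aversive 1 and 3 had 45.1 and 99.0 CPM and appetitive 1 and 2 had 45.9 and 53.0 CPM. All 4 lay above the 3 neutral libraries, by a narrow margin over neutral 2, and overlapped mock 3. The log2 fold change against neutral was 1.38 (SE 0.89) for aversive and 0.84 (SE 0.89) for appetitive libraries, with edgeR adjusted p 0.413 and 0.542. Tet2 shares 43 bases of exon with Gm42567 on the other strand.

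Tet3, the form best known from the oocyte and from neurons (ENSMUSG00000034832, chr6:83362373-83459084, minus strand), overlapped between all groups. It was at 7.72, 7.81 and 40.2 CPM in mock 1 to 3 and at 21.5, 29.8 and 37.4 CPM in neutral 1 to 3. Aversive 1 and 3 had 59.9 and 22.2 CPM and appetitive 1 and 2 had 49.3 and 22.8 CPM. Its log2 fold changes ran from -0.19 to 1.14 and its smallest edgeR unadjusted p was 0.306. With Tet2 it made up nearly all of the Tet sum in the aversive and appetitive libraries.

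Mbd2, a reader that joins methylated CpGs to the NuRD deacetylase complex (ENSMUSG00000024513, chr18:70568189-70626131, plus strand), was highest in the neutral libraries. Neutral 1 to 3 had 98.4, 115 and 59.5 CPM and mock 1 to 3 had 14.8, 35.4 and 5.24 CPM. Aversive 1 and 3 had 1.10 and 0.401 CPM, from 22 and 20 counts. Appetitive 1 had 0.626 CPM (8 counts) and appetitive 2 had 24.4 CPM (465 counts), a 38.9-fold gap within 1 group. The aversive libraries lay below all mock and all neutral libraries, and the neutral libraries above all others.

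The edgeR log2 fold change of Mbd2 was -6.93 (SE 1.85, unadjusted p 0.00318, adjusted p 0.144) for aversive against neutral and -4.63 (SE 1.64, unadjusted p 0.0168, adjusted p 0.473) for aversive against mock. For appetitive against aversive it was 4.06 (SE 1.64, unadjusted p 0.0309, adjusted p 0.21). None was called by edgeR, except that the first was called without the filter on low counts (adjusted p 0.0202), whereas DESeq2 called all 3, with adjusted p 3.43e-05, 0.0196 and 0.0322, and over the other settings the highest adjusted p was 0.26, 0.804 and 1.0. The last of these rests on appetitive 2: without that library the value was -0.38 in place of 4.06. The neutral libraries differed from the rest also in kit and in the length of the sequenced reads, of which only the leading 40 bp were aligned. The part of these differences in the high neutral level was not tested. Markers of choroid plexus and ependyma (Ttr, Folr1, Foxj1 and Tmem212) summed to 20940 to 129474 CPM in neutral libraries, above the 848 to 13347 CPM of the other 7, and the neutral libraries were also the lowest in summed markers of neurons, astrocytes and microglia (35.7 to 253 CPM for microglia, against at least 707 CPM). The part of these markers in the Mbd2 result was not tested.

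Mbd1, a reader with CXXC domains that recruits histone H3K9 methylation (ENSMUSG00000024561, chr18:74267605-74282732, plus strand), was at 27.2, 20.4 and 39.5 CPM in mock 1 to 3 and at 49.2, 41.5 and 22.6 CPM in neutral 1 to 3. Aversive 1 and 3 had 12.8 and 0.962 CPM, below every other library. Appetitive 1 and 2 had 139 and 15.9 CPM, of which the first was the highest and the second the lowest of the other 8 libraries. Appetitive against aversive gave an edgeR log2 fold change of 3.50 (SE 1.46, unadjusted p 0.035, adjusted p 0.221), which DESeq2 called (adjusted p 0.0363) and no other setting did (adjusted p up to 0.907). Without appetitive 1 it was 1.05, and without aversive 1 it was 6.22. Within a library, Mbd2 made up 80.7 to 85.3% of the 2 readers per kb in the neutral group but anywhere from 0.931 to 78.3% in the other 7 libraries.

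Set side by side per kb of exon, the genes took different orders in the 4 groups. In mock the mean level per kb ran from Mbd2 (5.74 ± 4.79 CPM per kb, SD, n = 3) over Mbd1 (4.33 ± 1.44), Dnmt1 (2.69 ± 1.80), Dnmt3a (2.44 ± 1.63), Tet2 (1.84 ± 0.867), Tet3 (1.11 ± 1.12), Tet1 (0.761 ± 0.651) and Dnmt3b (0.488 ± 0.286) to Uhrf1 (0.428 ± 0.314), and no neighbours in this order differed by more than the larger of their SDs. In neutral libraries Mbd2 led at 28.3 ± 8.90 CPM per kb, and its lowest library (18.5) exceeded the highest value of any other member there (8.76, Dnmt3a in neutral 1). Dnmt3a (5.83 ± 2.57), Mbd1 (5.63 ± 2.04) and Dnmt1 (3.67 ± 2.40) followed, with overlapping libraries. In aversive libraries Dnmt3a (5.16 ± 5.01, n = 2) and Tet2 (4.27 ± 2.26) had the highest means and Dnmt1 the lowest (0.0475 ± 0.00956), an order that is that of aversive 3, since in aversive 1 Tet3 led (3.59), Dnmt3a was 4th (1.61) and Dnmt1 (0.0543) lay above Uhrf1, Dnmt3b and Tet1. In appetitive libraries Mbd1 (11.5 ± 13.0, n = 2) led by appetitive 1 alone, followed by Dnmt3a (4.0 ± 0.780) and Mbd2 (3.89 ± 5.22), and Dnmt1 (0.0905 ± 0.0829), Tet1 (0.00759 ± 0.0107) and Dnmt3b (no count) closed the order.

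Over the 9 genes together, no member passed an adjusted p of 0.05 by edgeR in any of the 6 comparisons. For aversive against neutral, the test called 0.0405% of all genes. There 2 members (Dnmt1 and Mbd2) had an unadjusted p under 0.05, as 19.1% of all genes did, and DESeq2 called these 2, beside 16.1% of all genes. Groups of 6 members did not overlap, lower for Dnmt1, Uhrf1, Tet1, Mbd1 and Mbd2 and higher for Tet2, against 33.7% of all genes. The median log2 fold change of the members was -1.64, and that of all genes -0.15.

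For appetitive against neutral, edgeR called 6.17% of all genes. Unadjusted, 2 members (Dnmt1 and Tet1) passed, beside 29.3% of all genes, and DESeq2 called the same 2, beside 28.7%. Groups of 4 members did not overlap, lower for Dnmt1, Tet1 and Mbd2 and higher for Tet2, against 38.6% of all genes. The members' share is thus near the background, and their median of -0.54 stood beside -0.91 for all genes.

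The direct comparison of the tagged experiences, appetitive against aversive, moved the fewest members out of overlap. EdgeR called 1.8% of all genes and no member. Unadjusted, 2 members (Mbd1 and Mbd2) passed, beside 20% of all genes, and DESeq2 called both, beside 23.8%. The groups did not overlap for Mbd1 alone, against 28.4% of all genes, and Dnmt1, low in both groups, gave a log2 fold change of 0.94 (SE 1.36) with an edgeR adjusted p of 0.812.

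For aversive against mock, edgeR called 0% of all genes. Unadjusted, 2 members (Dnmt1 and Mbd2) passed, beside 9.96% of all genes, and DESeq2 called these 2, beside 7.83%. Dnmt1, Mbd1 and Mbd2 did not overlap and were lower, against 36.1% of all genes in either direction. For appetitive against mock, edgeR called 1.98% of all genes, and 2 members (Dnmt1 and Tet1) passed unadjusted, beside 23.8%, and by DESeq2, beside 26.3%. There Dnmt1, Tet1 and Dnmt3b did not overlap and were lower, against 48.7% of all genes.

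For neutral against mock no member passed in any of these ways, while edgeR called 0.0861% of all genes, 13.5% passed unadjusted and DESeq2 called 7.14%. Groups of 3 members did not overlap, with Dnmt3b lower and Uhrf1 and Mbd2 higher in neutral libraries, against 32% of all genes. Dnmt1 gave a log2 fold change of 0.44 (SE 1.07) there, with an edgeR adjusted p of 0.946. Comparisons with a group in common share its libraries, so the values of Dnmt1 against neutral and against mock are not separate evidence about the aversive or appetitive libraries. At the threshold used in the study, an adjusted p under 1e-05 with more than 4-fold change, DESeq2 called 1 member, Dnmt1, in aversive against neutral (with 651 genes in all) and in aversive against mock (with 235 genes), and edgeR called none.

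**Figure D5:**
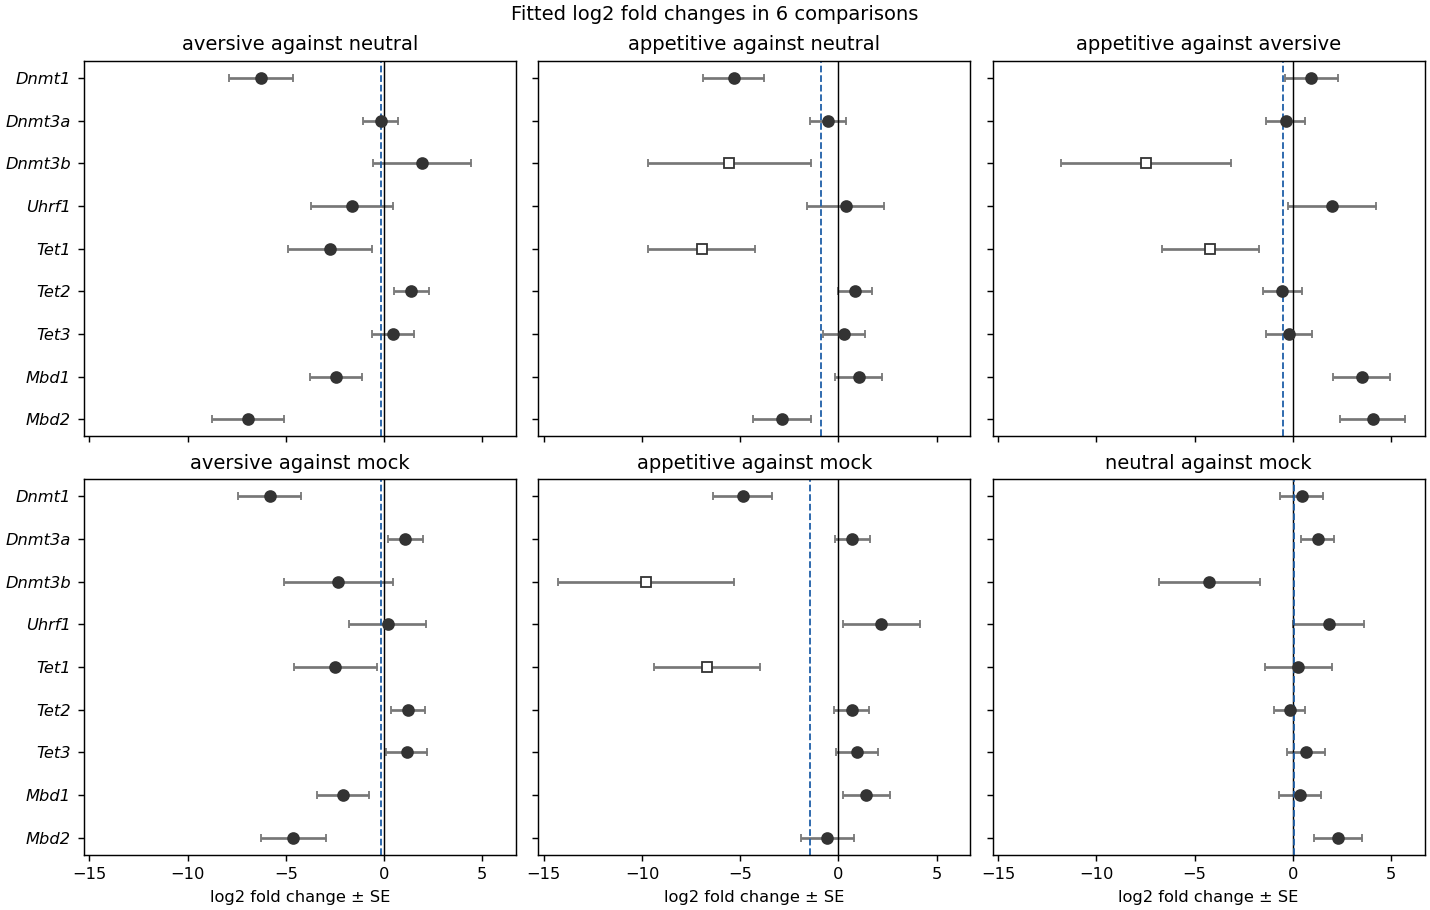
Fitted log2 fold change with SE (edgeR, horizontal axis) of each gene in the 6 comparisons, with circles for fits where both groups exceeded 3 counts in some library, open squares where 1 group had at most 3 counts in each library, and a dashed line at the median of all genes. Dnmt1 lies between -6.26 and -4.88 in the 4 comparisons of an experience group with neutral or mock, and Dnmt3a, Tet2 and Tet3 lie between -0.54 and 1.38 throughout.

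The partners of these genes were read from 4 lists. Of 11 genes of demethylation and base excision (Tdg, the Gadd45 genes and others), 10 were measured and edgeR called 0 in every comparison, with 1 to 2 passing unadjusted and 0 to 3 by DESeq2. Of 11 writer partners and methyl donor genes (Hells, Ogt, Mat2a and others), 9 were measured and 0 were called, with 0 to 2 unadjusted and 0 to 3 by DESeq2. Of 11 cell cycle genes edgeR called 0, with 1 to 3 unadjusted and 0 to 4 by DESeq2. These counts stand beside the shares of all genes given above, which over the 6 comparisons ran from 9.96 to 29.3% unadjusted and from 7.14 to 28.7% by DESeq2. Of the 11 cell cycle genes DESeq2 called 4 in aversive against neutral and 3 in aversive against mock. Those shares were larger than the 16.1% and 7.83% of all genes. In appetitive libraries it called 3 against neutral, 2 against aversive and 3 against mock, beside 28.7%, 23.8% and 26.3% of all genes. In neutral against mock it called 0, beside 7.14%. The median log2 fold change of the cell cycle genes against mock was -2.60 for aversive, -4.98 for appetitive and -0.96 for neutral libraries, where all genes stood at -0.13, -1.45 and 0.08. Against neutral it was 0.66 for aversive and -1.04 for appetitive libraries, beside -0.15 and -0.91 for all genes.

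Among 13 partners of Mbd2 and Mbd1 (NuRD subunits, Atf7ip and Setdb1), edgeR called 2, both lower, in appetitive against neutral. This was a larger share than the 6.17% of all genes it called there. In that comparison 3 passed unadjusted and 3 by DESeq2, smaller shares than the 29.3% and 28.7% of all genes. EdgeR called none in the other 5 comparisons, where 0 to 3 passed unadjusted and 0 to 3 by DESeq2. Setdb1, the H3K9 methyltransferase that works with Mbd1, had 2284, 2499 and 2432 counts in neutral 1 to 3, 479, 180 and 3350 in mock 1 to 3, 2 and 410 in aversive 1 and 3, and 0 and 1 in appetitive 1 and 2. In normalized CPM, aversive 3 (8.22 CPM) lay below mock 2 (9.37 CPM), the lowest of the 6 mock and neutral libraries. Setdb1 was thus lower in all 4 aversive and appetitive libraries than in the other 6, as were 6.49% of the genes tested. Its edgeR adjusted p for appetitive against neutral was 0.0404, and both appetitive libraries lay at or under 1 count. Chd3, a NuRD remodeler, had 95.7, 27.2 and 69.7 CPM in neutral 1 to 3 and 2.82 and 1.94 CPM in appetitive 1 and 2, a log2 fold change of -4.76 (SE 1.16, edgeR adjusted p 0.0401). It was at 47.3 and 80.0 CPM in aversive libraries and 9.64 to 23.5 CPM in mock, so the low level was seen in both appetitive libraries and in none of the other 8. The list's median in appetitive against neutral, -0.38, stood beside -0.91 for all genes. Both calls were lost when these 2 groups were fitted alone, a fit that called 0 of the 16100 genes it tested.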

How the data were processed

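RNA-seq was read from 10 libraries in 4 groups taken from the labels. The authors aligned only the leading 40 bp of reads, by STAR, to mm10 (GRCm38), and deposited raw counts of reads per Ensembl gene from featureCounts, made without strand. Depth was 16968588 to 67650693 counts. Of 53379 identifiers, 53274 were matched to GENCODE M21, and exon length is that of all annotated exons of a gene. Genes were tested with edgeR 4.0.16 in R 4.3.3 (quasi-likelihood F test, TMM factors 0.48 to 1.45, filterByExpr, 1 model of 4 groups, two-sided, Benjamini-Hochberg adjusted over 19754 genes). The common dispersion was 1.49. The SE of a log2 fold change was taken from its F statistic. Alternatives were DESeq2 1.42.0, RLE scaling, library size alone, no filter on low counts, a minimum of 10 counts in all libraries, fits of the compared groups alone with and without the replicate block, leaving out each library, and, added after seeing the data, the 7 libraries of one kit. DESeq2 dropped some genes from adjustment by its own filter. The members and lists were chosen with earlier results of these data known. All 9 members were named with values, and a fold change with its test was given where the unadjusted p was under 0.05; list genes were named where the adjusted p passed; other values chosen for the text were picked after they were seen. The edgeR and DESeq2 steps were tested on simulated data. A further list of genes is not reported here. DNA methylation itself was not analysed here.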

Additional observations from a re-analysis of the deposited data

How the results depend on the processing

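Groups of 2 or 3 libraries with a common dispersion of 1.49 limit what could be called, and 3 counts limit the lowest levels. No member was called by edgeR with RLE scaling or library size alone, which called up to 5.87% and 6.08% of all genes in a comparison. None was called with at least 10 counts in every library, where up to 3.43% of genes were. That setting tested 4 members, Dnmt1 not among them. In the 7 libraries of one kit edgeR called 0 of all 17595 genes tested, members included. Dnmt1 stood there at -5.66 (adjusted p 0.316) for aversive and -4.78 (adjusted p 0.141) for appetitive against mock. DESeq2 called 2 members in each comparison but neutral against mock. Without the filter 1 was called in aversive against neutral (Mbd2), beside 2.45% of all genes. In a fit of the 2 groups alone 1 was called in appetitive against mock (Dnmt3b), beside 21.8% of all genes. With each mock or neutral library left out in turn, 0 members were called, beside 0 to 4.12% of all genes. Leaving out an aversive or appetitive library leaves 1 in its group, so calls of members from those fits are not counted here. Mbd2 in appetitive against aversive ran from -0.38 (without appetitive 2, the only value that changed sign) to 4.88. Dnmt1 kept its sign in all settings where it was tested, from -6.60 to -5.38 and -6.92 to -4.62 against neutral and from -6.18 to -5.13 and -6.57 to -4.20 against mock, aversive first. The 2 NuRD and Mbd1 partners called in appetitive against neutral became 1 with at least 10 counts in every library. They became 0 in fits of those groups alone, which called 0 of all genes. The median gene of that comparison (-0.91) stood at -0.63 with RLE scaling and -1.45 with library size alone. The cause of these changes was not tested.

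With the replicate block, 0 members were called in the 5 comparisons whose groups share at least 2 numbers, as in the model of all 10 libraries without it; appetitive and aversive libraries share 1 number only. Over all genes the block gave 21 calls in aversive and 0 in appetitive against neutral, 0 in aversive, 2 in appetitive and 0 in neutral against mock. Fits of the same 2 groups without the block gave 0, 0, 0, 3585 and 0 in that order. The model of all 10 libraries gave 8, 1218, 0, 391 and 17. The numbers do not mark shared animals. In neutral against mock, same-numbered libraries deviated together with r of 0.188, 0.111 and 0.0366, each library best with its own number. In the other comparisons with shared numbers, same-numbered r ran from -0.062 (appetitive 2 with mock 2) to 0.157 (aversive 3 with mock 3). Aversive 1 and appetitive 1 went better with mock 2 (0.148 and 0.062) than with mock 1 (0.00715 and 0.0231). In a group of 2 libraries the deviations from the group mean are equal and opposite, so its libraries are not separate checks of pairing. Any pairing is thus a hint from part of the data and not from the design.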
